A study of Mus musculus with 21 samples.

Results

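The question here is how the response of the mouse ventral pons to facial nerve section changed between day 14 and day 30. The measure is the change of the lesion effect: the log2 difference between lesion and contralateral pons at day 30, minus the same difference at day 14. A negative value means that the lesion side stood less far above, or further below, the contralateral side at day 30 than at day 14. The comparison uses 12 of the 21 RNA-seq libraries, 3 from each of 4 groups: lesion and contralateral pons at day 30, and lesion and contralateral pons at day 14. It was tested in 22294 genes, those with at least 30 reads summed over all 21 libraries, of 45664 gene rows. All mice were C57BL/6 and CX3CR1GFP/wt, in which green fluorescent protein replaces 1 copy of the microglial receptor gene Cx3cr1. The right facial nerve was cut at its exit from the skull, the stylomastoid foramen, at 8 weeks of age, so the mice were 12 weeks old at day 30 and 10 weeks old at day 14. The lesion pons was always the right side and the contralateral pons always the left. Libraries of day 30 were read in sequencing lane 3 and those of day 14 in lane 2, with both sides of a day in the same lane. Day therefore cannot be told apart from age and lane, although each lesion effect was formed within 1 lane. The block of tissue held the facial nucleus together with neighbouring reticular and trigeminal nuclei, so neurons with a cut axon were only part of it. In such bulk tissue fewer cells of a type and less RNA per cell cannot be told apart.

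The facial nucleus holds the cell bodies of the motor neurons that move the muscles of the face, and cutting the nerve separates them from their targets. As background, an injured motor neuron shuts down parts of its transmitter machinery and switches on regeneration genes. These encode transcription factors such as Atf3, growth cone proteins, tubulins, receptors for neurotrophic factors, and neuropeptides. Microglia around the cell bodies multiply and wrap them, and T cells may enter the nucleus later.

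The 12 libraries held 17956784 to 29827291 counts each, and within a group the log2 expression values of the libraries correlated at 0.988 to 0.992 across genes. Mitochondrially encoded transcripts took 6.12% ± 0.298 of counts in day 30 lesion and 6.66% ± 0.542 in day 30 contralateral pons (SD, n = 3 each). They took 3.9% ± 0.939 in day 14 lesion and 4.59% ± 0.147 in day 14 contralateral pons, with 2.81% in day 14 lesion replicate 2. The part of this difference in the changes was not tested. Markers of motor neurons, other neurons, microglia, astrocytes, oligodendrocytes and endothelium had counts in all 12 libraries. Side letters in the day 30 column names are opposite to the labelled sides. The sample descriptions assign these columns to the labelled sides, and the direction of every day 30 value rests on that assignment.

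The lesion effect was lower at day 30 than at day 14 in 18 genes (0.0807% of genes tested) and higher in 0 genes (0%), by edgeR's quasi-likelihood test with Benjamini-Hochberg adjustment over all genes. The 18 genes were Avpr1a, Slc6a19, Itga7, Gadd45a, Anxa2, Gfra1, Il4ra, Hn1, Serpinb6a, Uck2, Tmem159, Tubb2b, Mvd, Nrep, Mvk, Fads3, Cyb5r3 and Stmn2. Their changes ran from -1.88 to -0.48 on the log2 scale. At an unadjusted p under 0.05 there were 1677 genes with a lower effect (7.52%) and 1699 with a higher one (7.62%). The higher effect nearest to the threshold was that of Nfat5, a transcription factor gene (adjusted p = 0.0677). Counts depended on the tool: limma-voom called 16 lower and 0 higher effects, and DESeq2 called 129 lower and 71 higher. DESeq2 gave an adjusted p only to genes with a mean normalized count of at least 1150. Of the 18 genes 8 had one, and DESeq2 called all 8. With the replicate number as a block, edgeR called 327 lower and 418 higher effects, with all 18 genes among the lower ones. Whether equal numbers mark 1 animal is not stated in the labels, so the counts of 18 and 0 hold for the fit without pairs. The count of lower effects also moved with single libraries. It was 462, with 476 higher effects, without day 14 lesion replicate 1, and 5 without day 14 lesion replicate 2 or 3, day 14 contralateral replicate 2 or day 30 contralateral replicate 1. It was 6 without day 30 lesion replicate 1, 10 without day 30 lesion replicate 2 or 3 or day 30 contralateral replicate 2, and 11 without day 14 or day 30 contralateral replicate 3. Without day 14 contralateral replicate 1 there were 14 lower and 2 higher effects. Lower effects called by DESeq2 had a median gene length of 2094 bases and higher ones of 10220 bases. Without day 14 lesion replicate 1 these lengths were 1854 and 8058 bases. In each of these fits all 18 genes kept a negative change. Uck2, Il4ra and Avpr1a passed the threshold without any 1 of the 12 libraries, Itga7 without 11 of them, Gadd45a without 10 and Anxa2 without 8.

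**Figure D1:**
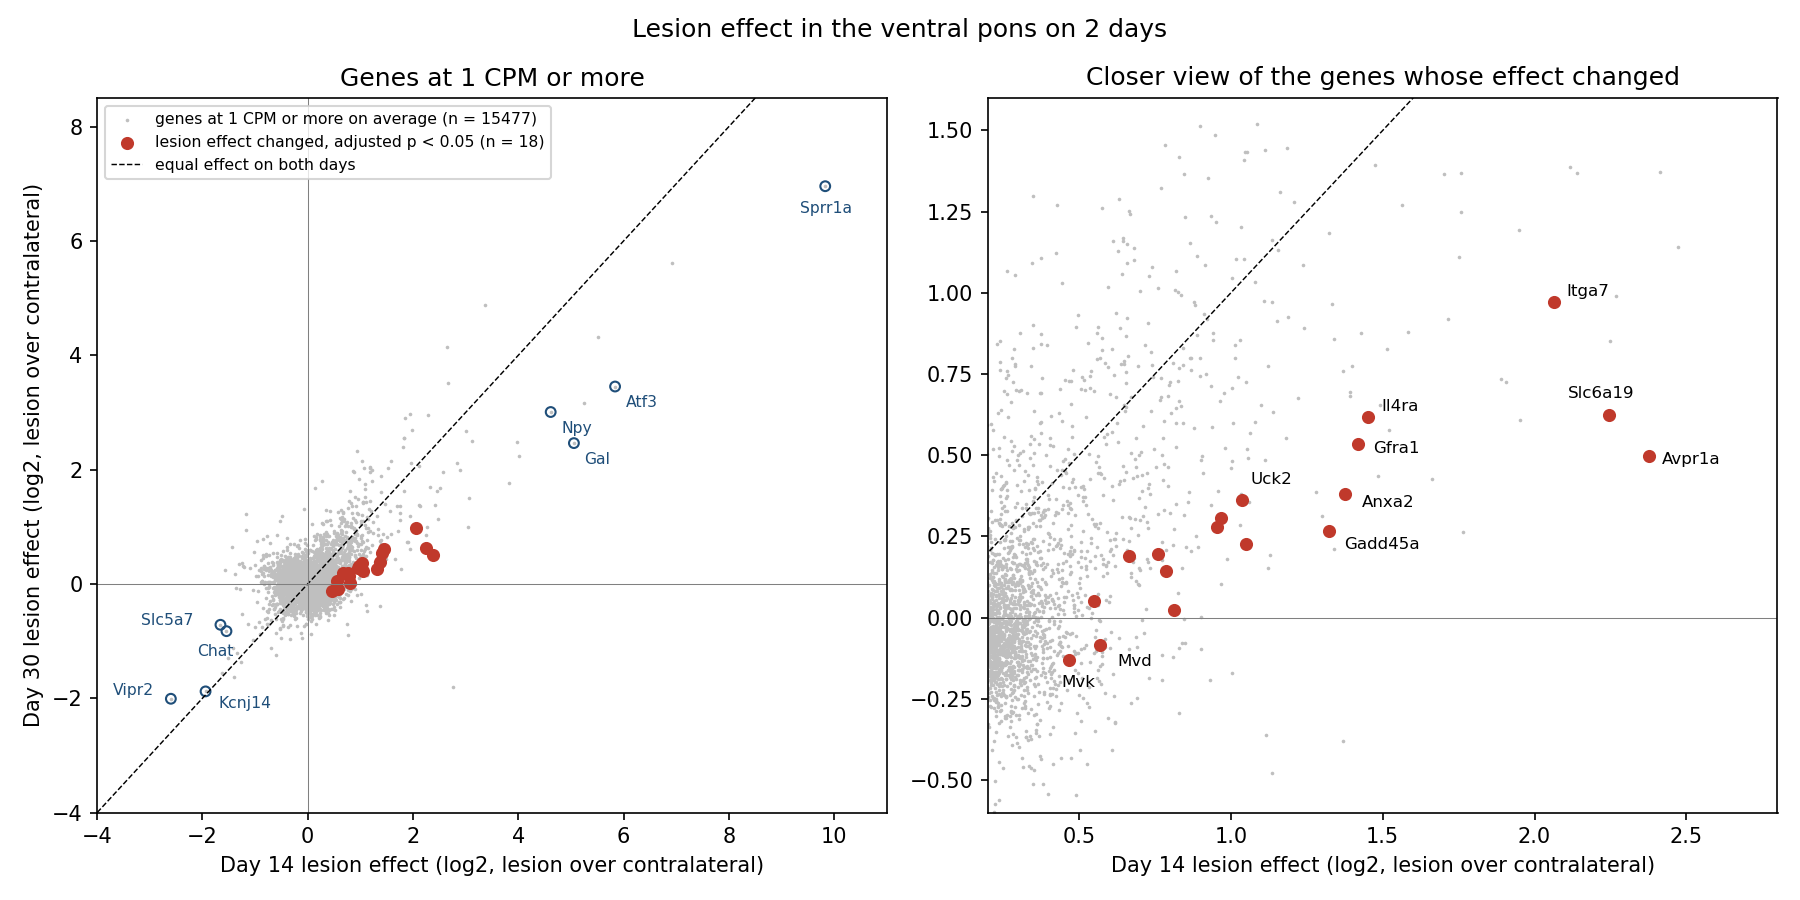
Lesion effect at day 30 (vertical axis) against lesion effect at day 14 (horizontal axis), both as log2 lesion over contralateral pons, 1 point per gene. The axes share no libraries, and the dashed line marks equal effects. Red points are the 18 genes whose effect changed, all below the line and right of 0; open circles in the left panel are genes chosen as markers, whose change did not pass the threshold, and the right panel enlarges the area of the red points and names some of them.

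In all 18 genes the 3 day 14 lesion libraries lay above the 3 day 14 contralateral libraries, an order found in 10.7% of all genes tested. The lesion effect passed the threshold in all 18 at day 14 (575 genes, 2.58% of those tested, were called higher then). At day 30 it passed in 4 of them: Itga7, Il4ra, Gfra1 and Uck2 (232 genes, 1.04%, were called higher then). The day 30 lesion libraries lay above the day 30 contralateral ones without overlap in 11 of the 18 genes, against 9.71% of all genes. The effects of each day enter the change and are given as a description of it. All 18 genes were called lower in lesion pons at day 30 than in lesion pons at day 14 (222 genes, 0.996% of those tested, were lower and 168, 0.754%, higher at day 30), and in all 18 every day 30 lesion library lay below every day 14 lesion library (10.2% of all genes). None of the 18 was called between the contralateral sides of the same days, where the absolute log2 difference was 0 to 0.42 (39 genes, 0.175%, were called higher and 52, 0.233%, lower at day 30).

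**Figure D2:**
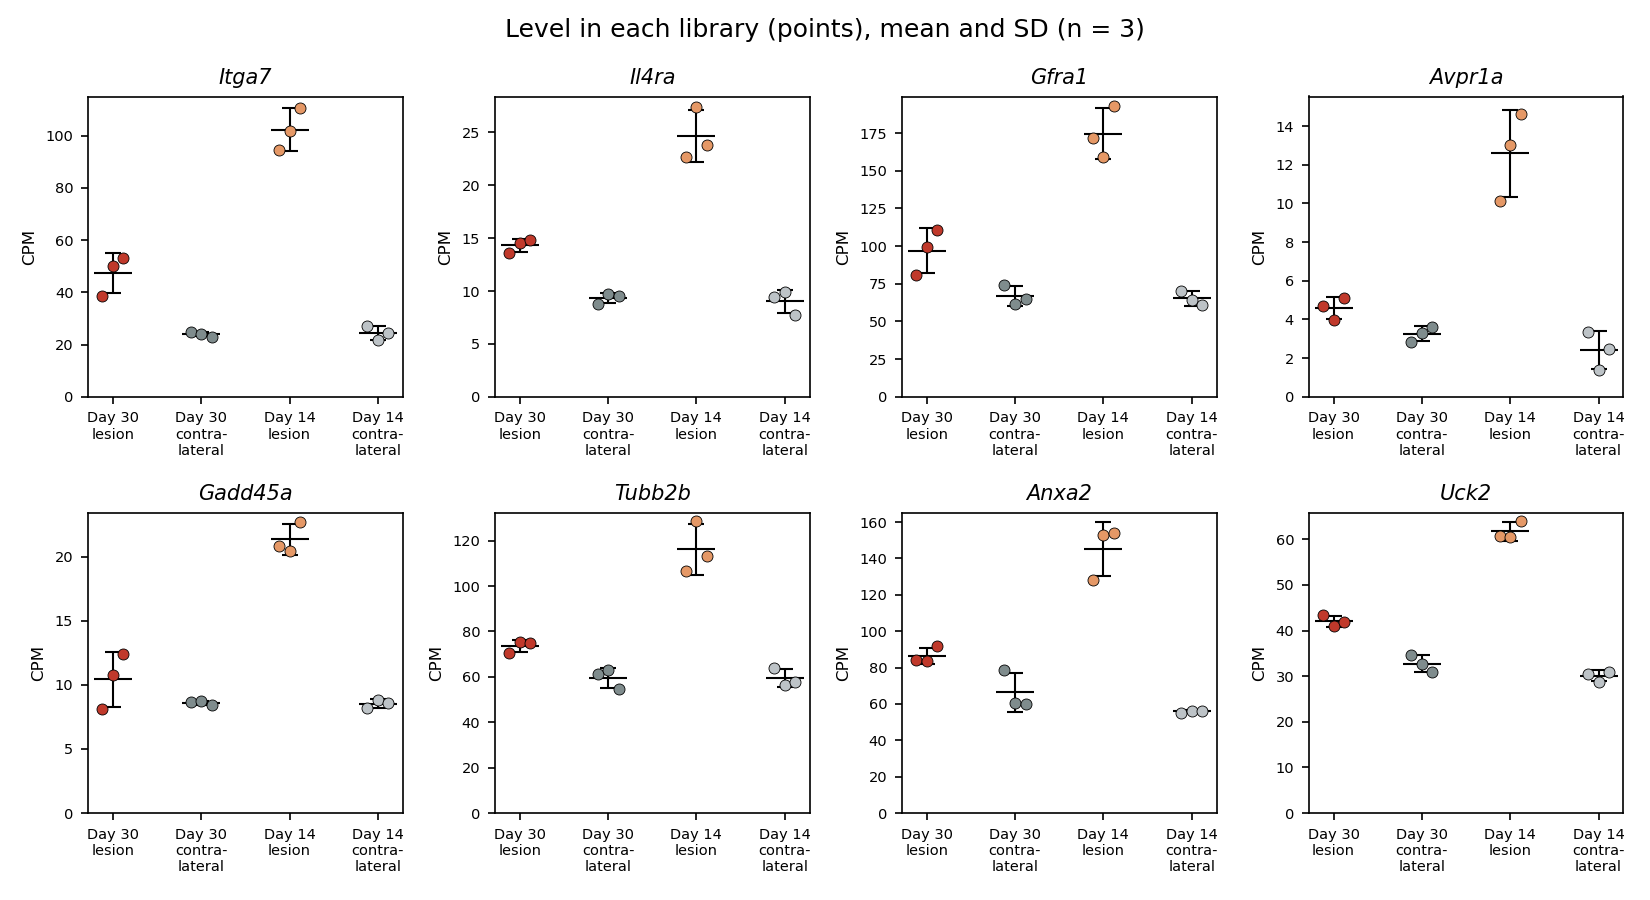
Level of 8 of the changed genes in each library, in CPM (vertical axis from 0), for day 30 lesion, day 30 contralateral, day 14 lesion and day 14 contralateral pons. Points are libraries, and bars are the mean and SD of 3 libraries. The day 14 lesion points stand apart above the other 3 groups in every panel.

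Of the 18 genes, 12 were found in a RefSeq table of promoters (GRCm38.p6), and the windows of the 3 that belong to a list of 35 axotomy response genes are printed here as members that moved together. The motifs searched, on both strands, were the AP-1 site TGAGTCA or TGACTCA, to which Jun and Fos proteins and their partner Atf3 can bind, the cAMP response element TGACGTCA, the core of the interferon-stimulated response element (GAAA, a pair of any bases, GAAA), and the GAS element TTCNNNGAA. Capitals mark the AP-1 site alone, which occurred once, in Anxa2 at position -95 from the RefSeq start used for the window. Gene positions given below are from GENCODE, and their starts can differ from those of the windows. The Gfra1 window lies inside the GENCODE span of its gene. Windows are read 5′ to 3′ on the strand of the gene: Anxa2 on the plus strand at chr9:69453433-69453732, Gadd45a on the minus strand at chr6:67037358-67037657 and Gfra1 on the minus strand at chr19:58455349-58455648.
Anxa2: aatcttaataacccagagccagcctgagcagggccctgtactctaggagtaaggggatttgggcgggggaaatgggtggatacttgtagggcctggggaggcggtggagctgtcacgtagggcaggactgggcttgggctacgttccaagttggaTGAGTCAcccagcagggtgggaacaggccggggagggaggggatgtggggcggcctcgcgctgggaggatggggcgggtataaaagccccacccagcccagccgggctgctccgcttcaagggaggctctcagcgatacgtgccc
Gadd45a: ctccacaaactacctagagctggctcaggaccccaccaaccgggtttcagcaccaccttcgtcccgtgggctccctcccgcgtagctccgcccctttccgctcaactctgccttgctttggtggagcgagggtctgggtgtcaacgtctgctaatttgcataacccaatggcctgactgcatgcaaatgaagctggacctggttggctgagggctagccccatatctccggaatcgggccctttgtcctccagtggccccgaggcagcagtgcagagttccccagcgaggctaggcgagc
Gfra1: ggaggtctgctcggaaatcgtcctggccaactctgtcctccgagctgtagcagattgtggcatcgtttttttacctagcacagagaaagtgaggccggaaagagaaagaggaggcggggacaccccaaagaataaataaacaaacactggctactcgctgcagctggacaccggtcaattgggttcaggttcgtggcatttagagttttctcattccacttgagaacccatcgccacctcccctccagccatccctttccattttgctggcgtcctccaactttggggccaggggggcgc
Among the 12 genes, 1 held the AP-1 site (Anxa2) and 0 the cAMP response element, which occurred in the promoters of 5.95% and 2.03% of the 27025 genes of that set. The response element core was in 2 of the 12, Gfra1 and Serpinb6a (3.99% of genes), and the GAS element in 1, Serpinb6a (9.55%). These letters are a description of the windows and say nothing about which factors act there.

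Receptor and adhesion genes included the largest change. Itga7, a subunit of laminin-binding integrins (chromosome 10, 128933818 to 128958282, GRCm38), stood at 38.6, 50.1 and 53.2 CPM (counts scaled to a common library size) in day 30 lesion and 25, 24.1 and 23.1 CPM in day 30 contralateral pons. At day 14 it stood at 94.4, 102 and 111 CPM in lesion and 27, 21.9 and 24.6 CPM in contralateral pons. Lesion and contralateral libraries were separate on both days, and every day 30 lesion library was below every day 14 lesion library. The lesion effect was 0.97 at day 30 and 2.06 at day 14, a change of -1.09 ± 0.16 (log2 ± SE, adjusted p = 0.0072). Without day 14 lesion replicate 2 the adjusted p was 0.056. Avpr1a, the V1a vasopressin receptor gene (chromosome 10, 122448499 to 122453452), stood at 4.71, 4 and 5.1 CPM in day 30 lesion and 2.84, 3.32 and 3.62 CPM in day 30 contralateral pons. Its day 14 values were 10.1, 13 and 14.6 CPM in lesion and 3.38, 1.4 and 2.47 CPM in contralateral pons. The day 14 lesion libraries were above all others, whereas the sides lay close together, without overlap, at day 30. The effect was 0.50 at day 30 (adjusted p = 0.52) and 2.38 at day 14, and the change of -1.88 ± 0.29 was the largest of the 18 (adjusted p = 0.0072).

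Gfra1, the GDNF-binding receptor through which motor neurons receive a survival factor (chromosome 19, 58235604 to 58455909), stood at 80.9, 99.2 and 111 CPM in day 30 lesion and 74.3, 61.8 and 64.6 CPM in day 30 contralateral pons. In day 14 lesion pons it stood at 172, 159 and 193 CPM, against 70.4, 64.5 and 61 CPM in day 14 contralateral pons. The contralateral levels of the days overlapped, and the difference between the days lay on the lesion side. The effect was 0.53 at day 30 and 1.42 at day 14, a change of -0.89 ± 0.16 (adjusted p = 0.0296). Il4ra, a chain of the interleukin-4 and interleukin-13 receptors (chromosome 7, 125552120 to 125579474), stood at 13.6, 14.6 and 14.8 CPM in day 30 lesion and 8.77, 9.68 and 9.49 CPM in day 30 contralateral pons. At day 14 the values were 22.7, 27.4 and 23.8 CPM in lesion and 9.44, 9.87 and 7.77 CPM in contralateral pons. Lesion libraries were above contralateral ones on both days, by 0.62 at day 30 and 1.45 at day 14. The change was -0.83 ± 0.13 (adjusted p = 0.0072). The call of Gfra1 was lost without 8 of the 12 libraries taken singly (adjusted p up to 0.13), all but day 30 lesion replicate 3, day 30 contralateral replicate 2, day 14 lesion replicate 1 and day 14 contralateral replicate 1, and that of Il4ra held without each (at most 0.039). Exons of 9 of the 18 genes overlap a gene on the opposite strand, among them Itga7 (Mettl7b), Gfra1 (Gm16277) and Il4ra (Gm44876), and whether the counting used strand is not given in the sources used here.

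Tubb2b, Stmn2 and Nrep are known from growing and regenerating neurons. Tubb2b, a beta tubulin of developing and regenerating neurons, stood at 70.6, 75.6 and 74.8 CPM in day 30 lesion and 61.3, 63 and 54.6 CPM in day 30 contralateral pons. Day 14 lesion pons had 107, 129 and 113 CPM and day 14 contralateral pons 64, 56.5 and 57.8 CPM. The sides did not overlap on either day. The effect was 0.31 at day 30 (adjusted p = 0.0803) and 0.97 at day 14, a change of -0.66 ± 0.12 (adjusted p = 0.0209). Stmn2, a stathmin that regulates microtubules in growth cones, was the most abundant of the 18. It stood at 721, 737 and 810 CPM in day 30 lesion and 694, 628 and 665 CPM in day 30 contralateral pons, and at 882, 988 and 1002 CPM in day 14 lesion and 631, 581 and 600 CPM in day 14 contralateral pons. The 2 sides were close at day 30, with an effect of 0.19 (adjusted p = 0.268), against 0.67 at day 14. The change was -0.48 ± 0.09 (adjusted p = 0.0296). Nrep, a gene named for its rise in regenerating neurons, averaged 104 ± 5.01 CPM in day 30 lesion and 93.6 ± 7.04 CPM in day 30 contralateral pons, and 155 ± 4.43 CPM in day 14 lesion and 89.7 ± 10.5 CPM in day 14 contralateral pons. Its change was -0.64 (adjusted p = 0.0228). Tubb2b missed the threshold without 7 of the 12 libraries, Stmn2 without 8 and Nrep without 7 (adjusted p up to 0.1, 0.13 and 0.1). All 3 passed without day 30 lesion replicate 3, day 14 lesion replicate 1 or day 14 contralateral replicate 1. Stmn2 and Nrep also passed without day 30 contralateral replicate 2, Tubb2b without day 30 lesion replicate 2 or day 30 contralateral replicate 3, and Nrep without day 14 contralateral replicate 3. Stmn2, Nrep, Fads3 and Cyb5r3 were picked for naming after their values were seen.

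Stress, membrane and salvage genes made up a further group. Gadd45a, induced by growth arrest and DNA damage (chromosome 6, 67035096 to 67037457), stood at 8.15, 10.8 and 12.4 CPM in day 30 lesion and 8.67, 8.72 and 8.41 CPM in day 30 contralateral pons. At day 14 it stood at 20.9, 20.5 and 22.7 CPM in lesion and 8.17, 8.83 and 8.59 CPM in contralateral pons. The sides overlapped at day 30, where 1 lesion library was below all contralateral ones, and were far apart at day 14. The effect was 0.27 at day 30 (adjusted p = 0.639) and 1.32 at day 14, a change of -1.06 ± 0.18 (adjusted p = 0.0131). It missed the threshold without day 14 lesion replicate 3 (adjusted p = 0.05) or day 30 contralateral replicate 1 (0.052). Anxa2, a calcium-dependent phospholipid-binding protein (chromosome 9, 69453620 to 69491795), stood at 84.3, 83.6 and 91.7 CPM in day 30 lesion and 78.8, 60.5 and 60 CPM in day 30 contralateral pons. Day 14 lesion pons had 128, 153 and 154 CPM and day 14 contralateral pons 54.9, 56.4 and 56.3 CPM. The 2 sides were separate on both days, with 1 high contralateral library at day 30. The change was -1.0 ± 0.16 (adjusted p = 0.0175), and it missed the threshold without day 14 lesion replicate 2 or 3 (0.088 and 0.054), day 14 contralateral replicate 2 (0.071) or day 30 lesion replicate 1 (0.065). S100a10, whose protein binds Anxa2, had a change of -0.97 (adjusted p = 0.13).

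Uck2, a uridine-cytidine kinase of nucleotide salvage (chromosome 1, 167222883 to 167285320), had the smallest adjusted p of all genes, 0.0049. It stood at 43.4, 40.9 and 41.9 CPM in day 30 lesion and 34.6, 32.8 and 30.9 CPM in day 30 contralateral pons, and at 60.6, 60.5 and 64.1 CPM in day 14 lesion and 30.6, 28.7 and 31 CPM in day 14 contralateral pons. Each group spanned a narrow range, and lesion pons was above contralateral pons on both days. The effect was 0.36 at day 30 and 1.04 at day 14, a change of -0.68 ± 0.10. Slc6a19, a neutral amino acid transporter gene, averaged 1.94 ± 0.577 CPM in day 30 lesion and 1.23 ± 0.196 CPM in day 30 contralateral pons, and 5.18 ± 0.243 CPM in day 14 lesion and 1.09 ± 0.179 CPM in day 14 contralateral pons. At these low levels its change of -1.62 ± 0.32 passed (adjusted p = 0.0297), but was lost without 9 of the 12 libraries (up to 0.15), all but day 30 lesion replicate 2, day 14 lesion replicate 1 and day 14 contralateral replicate 1. The day 14 lesion libraries were far above the other 3 groups. Hn1, annotated as Jpt1, changed by -0.82, Serpinb6a, a serine protease inhibitor of the cell interior, by -0.79, and Tmem159 by -0.67. Fads3, a fatty acid desaturase gene, changed by -0.56 and Cyb5r3, a cytochrome b5 reductase gene, by -0.50. Adjusted p-values of these 5 were 0.0228 to 0.0296, and each missed the threshold without 6 to 11 of the 12 libraries (adjusted p up to 0.13). Hn1 and Tmem159 passed only without day 14 lesion replicate 1, Cyb5r3 also without day 14 contralateral replicate 1, and Serpinb6a without day 14 lesion replicate 1 or day 30 contralateral replicate 2 or 3. Fads3 missed it without day 30 lesion replicate 1 or 3, day 30 contralateral replicate 1 or 2, day 14 lesion replicate 3 or day 14 contralateral replicate 2. With gene length added to the fit, Serpinb6a and Tmem159 missed it too (adjusted p = 0.059 and 0.08), and Tmem159 also with limma-voom (0.068).

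Both called genes of cholesterol synthesis act in the mevalonate steps of the pathway, and in both the lesion side was no longer above the contralateral side at day 30. Mvk, mevalonate kinase, stood at 36.7, 38.1 and 38.5 CPM in day 30 lesion and 40.2, 41.3 and 42.6 CPM in day 30 contralateral pons. It stood at 44.5, 57.2 and 51.9 CPM in day 14 lesion and 36.5, 36.8 and 37.8 CPM in day 14 contralateral pons. The sides were separate on both days and in opposite order. The effect was -0.13 at day 30 (adjusted p = 0.787) and 0.47 at day 14, a change of -0.60 ± 0.12 (adjusted p = 0.0296). Mvd, mevalonate diphosphate decarboxylase, averaged 31.1 ± 0.936 CPM in day 30 lesion and 33.0 ± 1.96 CPM in day 30 contralateral pons, and 41.6 ± 5.74 CPM in day 14 lesion and 28.1 ± 2.15 CPM in day 14 contralateral pons. Its change was -0.66 ± 0.12 (adjusted p = 0.0291). The call was lost without 11 of the 12 libraries for Mvk and without 8 for Mvd (adjusted p up to 0.12 and 0.13), and for Mvk with limma-voom (0.059). Mvk passed only without day 14 lesion replicate 1, and Mvd without that library, day 30 contralateral replicate 3 or day 14 contralateral replicate 1 or 3. Of 22 cholesterol synthesis genes 2 were called lower (0.0807% of all genes were), and at an unadjusted p under 0.05 the effect was lower in 8 and higher in 0, against 7.52% and 7.62% of all genes. The median change over the list was -0.18, against 0 over all genes. Pmvk, the kinase that acts between these enzymes, had a change of -0.38 (adjusted p = 0.151).

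**Figure D3:**
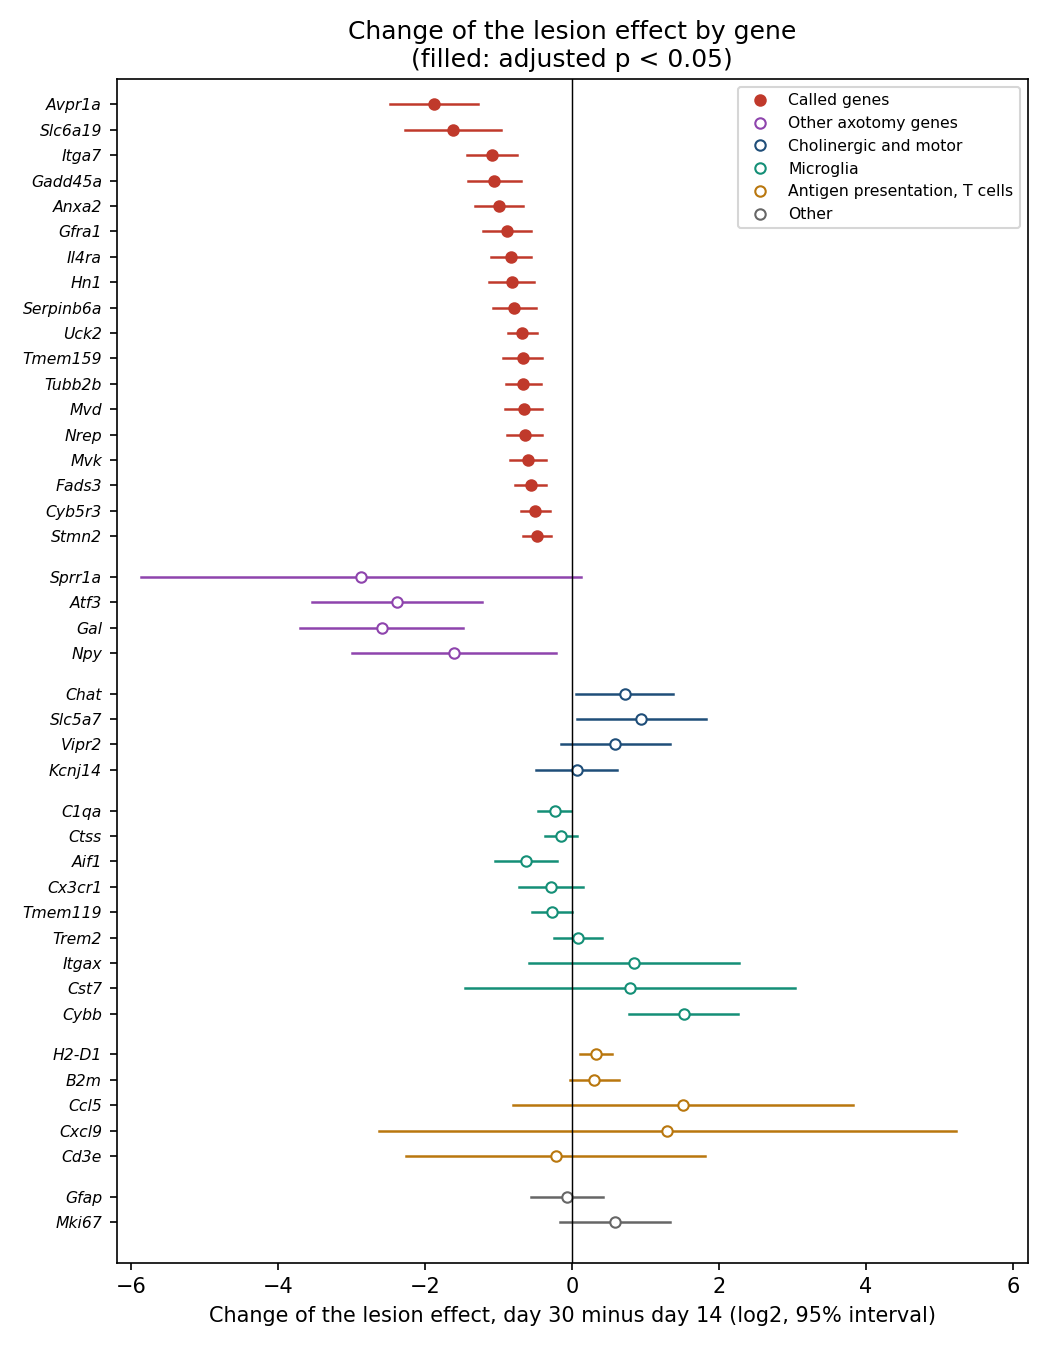
Change of the lesion effect, day 30 minus day 14 (log2, horizontal axis), with its 95% interval, for the 18 called genes (filled) and marker genes that did not pass (open). All filled points lie left of 0. The widest intervals belong to genes with few counts in at least 1 group, such as Sprr1a in contralateral pons.

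Of 35 axotomy response genes 6 were called lower (Itga7, Gadd45a, Anxa2, Tubb2b, Stmn2 and Gfra1), against 0.0807% of all genes. At an unadjusted p under 0.05, 18 had a lower effect and 1, Osmr, a higher one, against 7.52% and 7.62% of all genes. The count of called members was 11 without day 14 lesion replicate 1 and 1 without day 14 lesion replicate 2 or 3. It was 2 without day 14 contralateral replicate 2 or day 30 contralateral replicate 1, and 3 without day 14 contralateral replicate 3 or day 30 lesion replicate 1. Of the injury genes Atf3, Sprr1a, Gal and Npy, none passed. The median change was -0.36, with median effects of 0.27 at day 30 and 0.59 at day 14. Atf3, a stress transcription factor, stood at 10.1, 22.4 and 24 CPM in day 30 lesion and 1.83, 1.86 and 1.41 CPM in day 30 contralateral pons, and at 62.4, 71 and 81.9 CPM in day 14 lesion and 1.27, 1.3 and 1.19 CPM in day 14 contralateral pons. All lesion libraries were above all contralateral ones on both days, and those of day 14 above those of day 30. The change was -2.39 ± 0.54 (95% interval -3.54 to -1.23, adjusted p = 0.13). Sprr1a, which encodes a proline-rich protein of regrowing axons, stood at 35, 82 and 72.8 CPM in day 30 lesion and 202, 223 and 254 CPM in day 14 lesion pons. Its contralateral levels were at most 1.06 CPM, and the change was -2.87 (-5.87 to 0.12, adjusted p = 0.352). The neuropeptide gene Gal stood at 27.8, 50.5 and 50.7 CPM in day 30 lesion and 9.54, 6.75 and 6.86 CPM in day 30 contralateral pons, and at 190, 238 and 236 CPM in day 14 lesion and 7.24, 5.71 and 6.94 CPM in day 14 contralateral pons. Its change was -2.59 ± 0.52 (adjusted p = 0.105), and that of the neuropeptide gene Npy was -1.61 ± 0.65 (0.263). Among growth cone and tubulin genes, the change was -0.56 for Gap43 (adjusted p = 0.109), -0.42 for Tubb3 (0.103) and -0.64 for Tubb6 (0.0752). For the transcription factor genes it was -0.70 for Sox11 (0.158) and -0.43 for Jun (0.167). Grp, which encodes gastrin-releasing peptide, came near the threshold, with a change of -1.75 ± 0.36 (0.0583).

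Chat and Slc5a7, genes of acetylcholine synthesis, had positive changes that did not pass. Chat, the enzyme that makes acetylcholine, stood at 23.3, 18.3 and 18.1 CPM in day 30 lesion and 42.4, 30.6 and 33.3 CPM in day 30 contralateral pons. At day 14 it stood at 13.8, 9.94 and 14.7 CPM in lesion and 39.8, 35.5 and 36.5 CPM in contralateral pons. Lesion libraries were below contralateral ones on both days, and the day 30 lesion libraries were above those of day 14. The effect was -0.83 at day 30 and -1.54 at day 14, a change of 0.72 ± 0.31 (0.05 to 1.38, adjusted p = 0.291). Slc5a7, the choline transporter, averaged 75.4 ± 13.1 CPM in day 30 lesion and 124 ± 28.9 CPM in day 30 contralateral pons, and 38.3 ± 10.6 CPM in day 14 lesion and 120 ± 11.2 CPM in day 14 contralateral pons. Its change was 0.94 ± 0.41 (adjusted p = 0.295). The change was 0.59 ± 0.36 (-0.15 to 1.34, adjusted p = 0.457) for Vipr2, a neuropeptide receptor gene. It was 0.04 ± 0.27 (-0.54 to 0.62) for Slc18a3, the vesicular acetylcholine transporter. It was 0.06 ± 0.27 (-0.49 to 0.62) for the potassium channel gene Kcnj14 and 0.07 ± 0.41 (-0.81 to 0.94) for the motor neuron lectin gene Chodl. The median change over 21 motor neuron and cholinergic genes was 0.07. At an unadjusted p under 0.05, 4 had a higher and 2 a lower effect, against 7.62% and 7.52% of all genes. The 2 with a lower effect were the filament gene Prph (-0.92, adjusted p = 0.167) and the GDNF co-receptor Ret (-0.28, 0.249). The summed level of this list was 4950 to 5410 CPM in day 30 lesion and 5510 to 6570 CPM in day 30 contralateral pons, and 5200 to 6240 CPM in day 14 lesion and 5760 to 6400 CPM in day 14 contralateral pons. None of its 5 defining markers was at 0 in any library. The part of motor neuron number in the changes of the neuronal genes above was not tested.

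Of 18 homeostatic microglia genes the lesion effect was called higher in 9 at day 30 and in 9 at day 14. Of 25 microglia activation genes it was called higher in 12 at day 30 and in 13 at day 14. Over all genes tested 1.04% were called higher at day 30 and 2.58% at day 14. No change of these microglia genes between the days passed. C1qa, a complement chain made by microglia, averaged 103 ± 5.98 CPM in day 30 lesion and 54.6 ± 2.27 CPM in day 30 contralateral pons, and 97.3 ± 1.34 CPM in day 14 lesion and 43.8 ± 2.69 CPM in day 14 contralateral pons. Lesion libraries were far above contralateral ones on both days, and the change was -0.24 (-0.46 to -0.01, adjusted p = 0.297). For the microglial protease gene Ctss it was -0.15 (-0.37 to 0.07) and for the lipid receptor gene Trem2 0.08 (-0.25 to 0.40). For the homeostatic marker Tmem119 it was -0.28 (-0.55 to -0.01). For Itgax and Cst7, also named in advance, it was 0.85 (-0.59 to 2.28) and 0.79 (-1.46 to 3.03). Aif1, which encodes Iba1, had a change of -0.63 ± 0.21 (adjusted p = 0.181). It averaged 8.88 ± 0.287 CPM in day 30 lesion and 5.17 ± 0.992 CPM in day 30 contralateral pons, and 9.19 ± 0.703 CPM in day 14 lesion and 3.48 ± 0.150 CPM in day 14 contralateral pons. The lesion libraries of the days overlapped, and the day 30 contralateral libraries were above those of day 14. Cx3cr1, of which these mice have 1 intact copy, had an effect of 0.46 at day 30 (adjusted p = 0.229) and 0.75 at day 14, and a change of -0.29 (adjusted p = 0.546). Of the homeostatic genes 0 had a called change, and the median change was -0.06. At an unadjusted p under 0.05, 4 of them were lower and 0 higher, against 7.52% and 7.62% of all genes. Of the activation genes 0 had a called change, 3 were lower and 2 higher at that p, and the median was -0.01. Cybb, the catalytic subunit of the phagocyte NADPH oxidase, had the smallest p among them. It stood at 3.27, 4.27 and 3.69 CPM in day 30 lesion and 1.25, 0.901 and 1.03 CPM in day 30 contralateral pons, and at 2.48, 1.08 and 1.62 CPM in day 14 lesion and 1.22, 1.19 and 1.74 CPM in day 14 contralateral pons. The sides were separate at day 30 and overlapped at day 14. The effect was 1.8 at day 30 and 0.28 at day 14, a change of 1.52 ± 0.36 (adjusted p = 0.109). Gfap, the astrocyte filament gene, had a change of -0.07 (-0.56 to 0.42), and Mki67, a gene of dividing cells, one of 0.58 (-0.17 to 1.33).

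Interferon-stimulated genes, interferon-induced GTPases and class I presentation genes had larger median lesion effects at day 30 than at day 14, but no gene of these lists passed. Some of their genes passed without day 14 lesion replicate 1, a fit in which more genes were called in both directions. Of 40 interferon-stimulated genes 35 had a positive change, with a median of 0.40 (median effects of 1.25 at day 30 and 0.86 at day 14). At an unadjusted p under 0.05 the effect was higher in 2, among them Slfn5, and lower in 0, against 7.62% and 7.52% of all genes. Of 16 interferon-induced GTPases 15 had a positive change, with a median of 0.52, and 1, Gbp5, was higher at that p. Slfn5, a gene of the Schlafen family, stood at 10.1, 12.3 and 13.9 CPM in day 30 lesion and 8.43, 8.5 and 10.7 CPM in day 30 contralateral pons, and at 10.5, 7.67 and 7.34 CPM in day 14 lesion and 9.25, 10.8 and 9.91 CPM in day 14 contralateral pons. The sides overlapped on both days, and the change was 0.63 ± 0.20 (adjusted p = 0.169). The summed level of the 40 genes was 565, 658 and 856 CPM in day 30 lesion and 373, 353 and 336 CPM in day 30 contralateral pons, and 803, 416 and 408 CPM in day 14 lesion and 374, 337 and 331 CPM in day 14 contralateral pons. Day 14 lesion replicate 1 stood apart from the other two of its group, and the overlap of the lesion libraries between the days rested on it. For the 16 GTPases the sum was 111, 147 and 175 CPM in day 30 lesion and 152, 66.9 and 62.4 CPM in day 14 lesion pons, and it was 60.4 to 86.1 CPM in the contralateral libraries. Without day 14 lesion replicate 1 the change was called higher in 14 of the 40 interferon-stimulated genes and 6 of the 16 GTPases. It was called higher in 4 of the 21 class I genes. In that fit 476 of all 22294 genes tested were called higher and 462 lower. The median change was then 0.97 for the interferon-stimulated genes and 0.97 for the GTPases. What set this library apart was not tested. The 21 class I presentation genes had median effects of 0.72 at day 30 and 0.56 at day 14, with a median change of 0.18 and 2 higher and 0 lower effects at an unadjusted p under 0.05. The 14 genes of MHC class II and costimulation had median effects of 0.37 at day 30 and 0.39 at day 14, and a median change of 0.10. The class I gene H2-D1 averaged 170 ± 5.48 CPM in day 30 lesion and 91.5 ± 7.27 CPM in day 30 contralateral pons, and 124 ± 14.7 CPM in day 14 lesion and 83.6 ± 5.83 CPM in day 14 contralateral pons. Its change was 0.33 ± 0.11 (adjusted p = 0.173), and that of its light chain gene B2m 0.30 ± 0.16 (0.381). The class I gene H2-Q7, one of a family of near-identical genes whose reads the counting may split, had a change of 1.09 ± 0.37 (0.184).

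The T cell markers had few counts. Of 6 T cell markers, Trac stood at 2.36 to 3.7 CPM over the 12 libraries and the others at no more than 1.04 CPM, with Cd3d and Cd8a at 0 in 5 libraries each and Cd3g in 3. Cd3d, a chain of the T cell receptor complex, was at 0.194 to 0.404 CPM in day 30 lesion and at 0 to 0.0753 CPM in day 14 lesion pons. The lesion libraries of the days did not overlap for Cd3d, an order found in 10% of all genes tested. They overlapped for the other markers, Cd3e, Cd3g, Cd8a, Cd4 and Trac. Ctsw, a protease gene of cytotoxic lymphocytes, stood at 1.01, 0.5 and 0.729 CPM in day 30 lesion and 0.144, 0.394 and 0.423 CPM in day 30 contralateral pons, and at 0.456, 0.447 and 0.226 CPM in day 14 lesion and 0.538, 0.363 and 0.594 CPM in day 14 contralateral pons. The sides were separate at day 30 and overlapped at day 14, and the change was 1.68 ± 0.57 (adjusted p = 0.19). Trbc2, a T cell receptor constant region gene, stood at 0.370, 0.182 and 0.535 CPM in day 30 lesion and 0.337, 0.169 and 0.329 CPM in day 30 contralateral pons, and at 1.11, 0.931 and 0.866 CPM in day 14 lesion and 0.196, 0.260 and 0.228 CPM in day 14 contralateral pons. Here the sides overlapped at day 30 and were separate at day 14, and the change was -1.72 ± 0.62 (adjusted p = 0.202). Cd3e, a T cell receptor chain gene, had a change of -0.22 (-2.26 to 1.81). Cd8a stood at 1.04, 0.363 and 0.292 CPM in day 30 lesion and had no count in day 30 contralateral pons. At day 14 it stood at 0.101, 0.372 and 0.15 CPM in lesion and at most 0.0914 CPM in contralateral pons. Its change was 4.29 (-0.45 to 9.03), a value that depends on the fit because 1 group held no count. At an unadjusted p under 0.05, 3 of 30 T cell and cytotoxic genes tested had a higher effect (Ctsw, Cxcr3 and Cd8b1). A lower one was found in 2 (Thy1 and Trbc2). Over all genes 7.62% were higher and 7.52% lower at that p. Group means of Thy1 were 822 to 961 CPM, far above the levels of the T cell markers. In 3 members of the T cell list at least 1 group held no count, so its median is not given. The chemokine gene Ccl5 stood at 5.46, 4.18 and 8.51 CPM in day 30 lesion and 3.65, 0.893 and 1.81 CPM in day 14 lesion pons, and contralateral levels were at most 0.433 CPM. The lesion libraries of the days did not overlap, yet the change was 1.51 with an interval of -0.81 to 3.83 (adjusted p = 0.558). The interval includes 0, and what made it wide was not tested. The chemokine genes Cxcl9 and Cxcl10 had changes of 1.30 (-2.63 to 5.23) and 1.51 (-2.52 to 5.54).

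**Figure D4:**
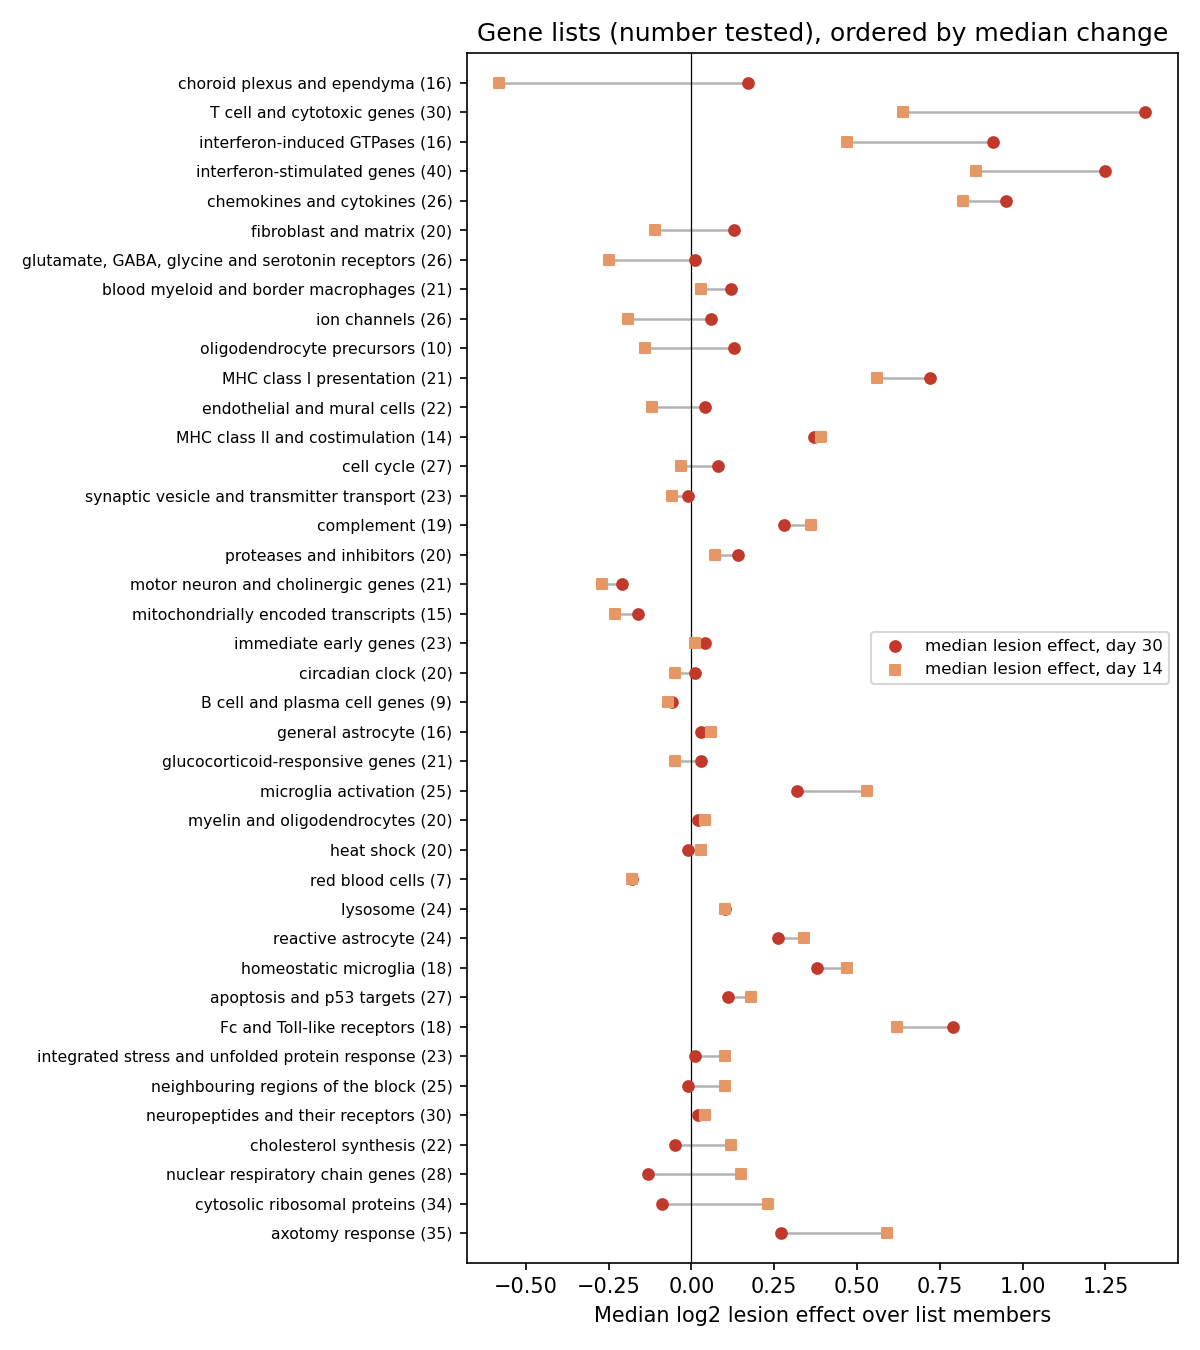
Median lesion effect over the members of each gene list (log2 lesion over contralateral pons, horizontal axis) at day 30 (circles) and day 14 (squares), lists ordered by median change, with the number of members tested in brackets. The axotomy response list has its day 30 median at 0.27, left of 0.59 at day 14, and the interferon-stimulated list at 1.25, right of 0.86 at day 14; 3 T cell members had a group with no count, so that list's medians depend on the fit.

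The genes called on only 1 of the 2 days were compared by the same contrast. Of the 575 genes higher in lesion pons at day 14, 423 were not called at day 30, and 18 of the 575 had a called change. The other genes called at day 14 and not at day 30 are therefore not shown to differ between the days. Of the 232 genes called higher at day 30, 80 were not called at day 14. At an unadjusted p under 0.05 the effect of 17 was higher at day 30, but 0 of the 80 passed the threshold for the change, and the smallest adjusted p was 0.109. Of the 291 genes lower in lesion pons at day 14 (1.31% of those tested), 272 were not called at day 30 (27 lower, 0.121%), and 0 of the 291 had a called change. At an unadjusted p under 0.05 the effect was lower at day 30 in 305 of the 575 and higher in 6. It was higher at that p in 219 of the 291 and lower in 0. Such sets were chosen on values that enter the change, so the sign of their medians is in part set by the choice.

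The lesion effect at day 7, in libraries that are not part of the change, was also examined for the 18 genes, a comparison added after the data were seen. All 18 were called higher in lesion pons at day 7 (347 genes, 1.56% of those tested, were higher and 21, 0.0942%, lower). The 18 genes were chosen for a lesion effect that was high at day 14 and low at day 30, so no order of the days is read from them. For Itga7 the effect was 2.01 at day 7, 2.06 at day 14 and 0.97 at day 30. For Avpr1a it was 1.88 at day 7, 2.38 at day 14 and 0.50 at day 30, and for Il4ra 0.95, 1.45 and 0.62 on the same days.

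Gene length moved with the change across the transcriptome. Among 15477 genes at 1 CPM or more on average, split into 5 groups of equal number by length, the median change was -0.18 in the shortest group (median 1271 bases) and 0.17 in the longest (median 8763 bases). At an unadjusted p under 0.05 the shortest group held 717 lower and 53 higher effects, and the longest 45 lower and 903 higher. The 18 called genes were 1761 to 5602 bases long, with 4, 4, 4, 6 and 0 of them in the groups from short to long. The level of long over short genes differed between the groups: its mean log2 deviation was 0.04 in day 30 lesion and -0.10 in day 30 contralateral pons, and -0.09 in day 14 lesion (-0.25 to 0.06) and 0.13 in day 14 contralateral pons. A length term for each library, added after the data were seen, left 18 called genes, 16 of them among the 18, and the changes of Uck2 (-0.73), Il4ra (-0.88), Avpr1a (-1.81) and Itga7 (-1.10) passed in that fit.

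**Figure D5:**
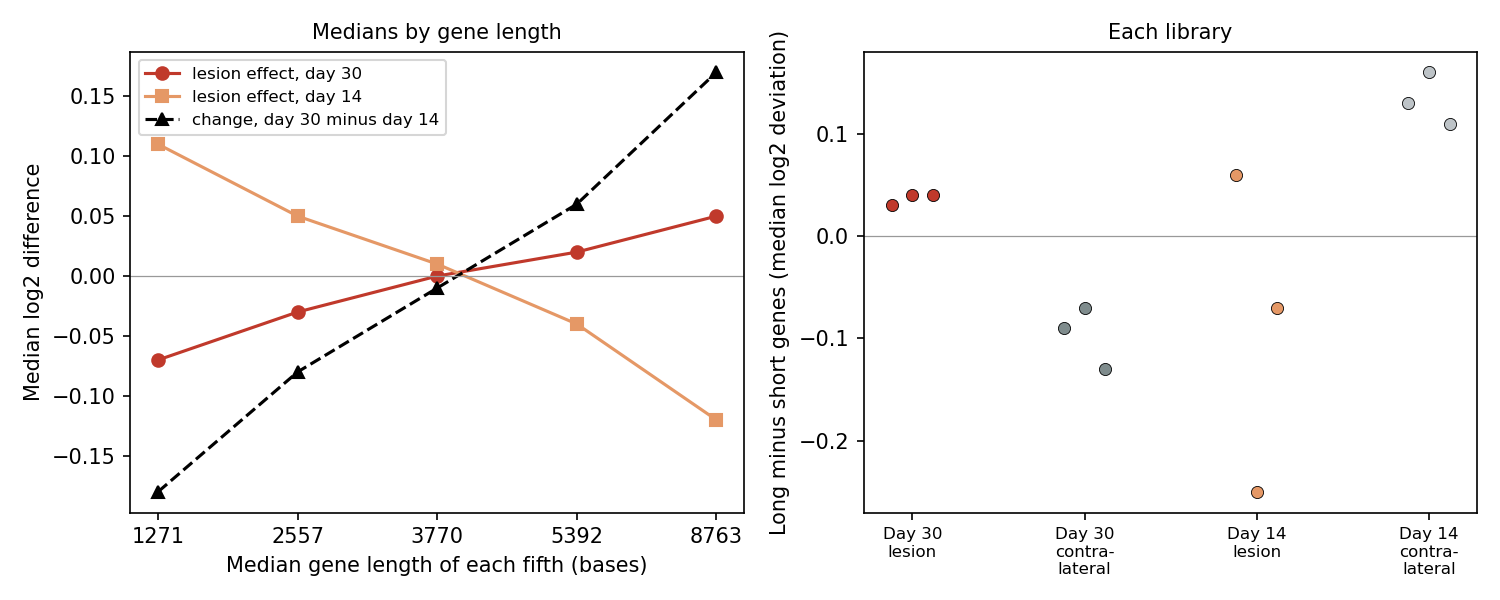
Left: median lesion effect at day 30 and at day 14, and median change (log2, vertical axis), in 5 equal groups of 15477 genes ordered by gene length (median length in bases, horizontal axis). Right: level of long relative to short genes in each of the 12 libraries (log2). The change rises from -0.18 in the shortest group to 0.17 in the longest, and day 14 lesion replicate 2 is the lowest library at -0.25.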

How the data were processed

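Strand-specific mRNA libraries (TruSeq Stranded mRNA) of ventral pons were read as single reads. Per the labels and the deposited design text, base calls were made with CASAVA 1.8.2, and the authors aligned reads with Rsubread to GRCm38.p4 and counted them per gene with featureCounts. The deposited count table holds raw counts, and a second deposited table holds the authors' voom log2 values after their filter on low counts. Whether counting used strand is not given in the sources used here.

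Counts of all 21 libraries were fitted with edgeR 4.0.16 (R 4.3.3): TMM scaling, 7 group coefficients, robust quasi-likelihood test, Benjamini-Hochberg adjustment over 22294 genes with at least 30 counts in all, and a threshold of 0.05. CPM uses TMM-scaled library sizes, and its mean ± SD is over 3 libraries. Changes are given ± SE with 95% intervals. limma 3.58.1 and DESeq2 1.42.0 served as alternatives. The test was checked on simulated counts. It recovered 24.2% of true changes of -0.5 and 36.4% of those of 0.5. It recovered 73.5% at -1, 93.9% at 1, 97.1% at -2 and 97% at 2. Of genes with no true change 0.0317% were called. Many changes near 0.5 in size would therefore be missed.

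The named genes were the 12 largest changes among called genes at 1 CPM or more (all were lower effects, since none was called higher), the called members or the smallest p-value of each gene list, and marker genes. Nfat5, Stmn2, Cyb5r3, Nrep, Fads3, Cd8b1, Chodl, Ctsw, Cxcr3, Gap43, H2-Q7, Jun, Osmr, Pmvk, Ret, Slc18a3, Sox11, Trbc2, Tubb3 and Tubb6 were named after their values were seen. The contrast, lists and tests were chosen with earlier results of these data known. The labels do not say that equal replicate numbers mark 1 animal, so p-values measure the spread between these samples. Positions are from GENCODE M21 and promoters from RefSeq.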

Additional observations from a re-analysis of the deposited data

Results flagged for a closer look

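A difference of the lesion effect between the days, by the test of that difference itself, marks 18 genes. The change, day 30 minus day 14 on the log2 scale, was -1.88 for Avpr1a, -1.62 for Slc6a19, -1.09 for Itga7, -1.06 for Gadd45a, -1.0 for Anxa2 and -0.89 for Gfra1. It was -0.83 for Il4ra, -0.82 for Hn1, -0.79 for Serpinb6a, -0.68 for Uck2, -0.67 for Tmem159 and -0.66 for both Tubb2b and Mvd. It was -0.64 for Nrep, -0.6 for Mvk, -0.56 for Fads3, -0.5 for Cyb5r3 and -0.48 for Stmn2. With 3 libraries per group, no test for a single outlying sample was applied.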

How the results depend on the processing

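The counts of 18 lower and 0 higher effects depended on the fit. They were 191 lower and 140 higher with no filter on low counts, 129 and 71 with DESeq2, and 56 and 36 when only the 12 libraries were fitted. At an absolute log2 difference of at least 1.7 the count of lower effects was 1 (Avpr1a). DESeq2 size factors and a filter of 1 CPM in 3 libraries each gave 18 and 0, limma-voom gave 16 and 0, and limma on the deposited log2 matrix and the fit without the robust option gave 22 and 0 each. Leaving out each of the 12 libraries gave 5 to 462 lower and 0 to 476 higher effects. A gene length offset, chosen after seeing the data, gave 18 and 0. With the replicate number as a block there were 327 lower and 418 higher effects, and all 18 genes were among the lower effects. Deviations of same-numbered samples correlated at 0.17 to 0.27 at day 7, 0 to 0.27 at day 14 and 0.19 to 0.21 at day 30, and 3, 2 and 3 of the 3 samples on these days correlated best with their own number. Not every pair was over 0.1 (day 14 replicate 2 was at 0), so the numbers were not taken as pairs. These correlations do not show that equal numbers were different animals. Of 80 named genes followed through the alternatives, none called in the main or the alternative fit changed sign. Changes of sign in uncalled genes were not counted. In the fits below, genes called higher were longer than genes called lower. Their median lengths were 10220 and 2094 bases with DESeq2, 9452 and 1757 with no filter, and 9668 and 1861 with the 12 libraries. They were 9275 and 1659 with the block, and 8058 and 1854 without day 14 lesion replicate 1. All genes tested had 2962 (2063 with no filter). The cause of the moved counts was not tested. The counts of single-day comparisons were not recomputed. Groups of 3 libraries limit the smallest change that passes.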

Other observations

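Outside the lists of the report, the median change was negative for genes of the ribosome and the respiratory chain and positive for those of ion channels and transmitter receptors. Of 34 cytosolic ribosomal protein genes 33 had a negative change, with a median of -0.31 (median effects of -0.09 at day 30 and 0.23 at day 14), and 19 were lower at an unadjusted p under 0.05. Of 28 nuclear genes of the respiratory chain 26 had a negative change, with a median of -0.28, and 19 were lower at that p. Rplp0, a protein of the ribosomal stalk, had a change of -0.37 (edgeR adjusted p = 0.143), and Ndufs5, a subunit of respiratory complex I, one of -0.49 (0.163). No member of either list passed the adjusted threshold. Of 26 ion channel genes 21 had a positive change, with a median of 0.22, and 10 were higher and 2 lower at an unadjusted p under 0.05. Cacna2d1, a calcium channel auxiliary subunit gene and the member with the smallest p, had a change of -0.54 (0.124). Of 26 transmitter receptor genes 22 had a positive change, with a median of 0.27, and 7 were higher at that p. Gria3, a glutamate receptor subunit gene, had a change of 0.28 (0.193). Over all genes tested, 7.52% were lower and 7.62% higher at that p. Without day 14 lesion replicate 1 the change was called lower in 10 ribosomal and 11 respiratory chain genes. It was called higher in 2 and lower in 1 of the ion channels and higher in 3 of the receptors. In that fit 462 of all 22294 genes tested were called lower and 476 higher.

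These lists differ in gene length. The median length was 1403 bases for the ribosomal list and 1654 bases for the respiratory list, against 9049 bases for the ion channels, 6094 bases for the receptors and 2962 bases for all genes tested. With a gene length offset the median change was -0.18 for the ribosomal, -0.16 for the respiratory, 0.06 for the ion channel and 0.14 for the receptor list. The axotomy list, with a median length of 3189 bases, had a median change of -0.35 with the offset and -0.36 without it. The change was then -0.23 for Rplp0 (adjusted p = 0.29), -0.29 for Ndufs5 (0.35), -0.75 for Cacna2d1 (0.064) and 0.11 for Gria3 (0.65).

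Ttr, which encodes transthyretin and marks the choroid plexus, stood at 45.7, 28.5 and 19.8 CPM in day 30 lesion and 8.86, 14.6 and 25.9 CPM in day 30 contralateral pons. It stood at 85.6, 360 and 16.2 CPM in day 14 lesion and 112, 49.6 and 878 CPM in day 14 contralateral pons. The libraries of each day overlapped between the sides, and the range within a group was widest at day 14.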
